A study of Mus musculus with 23 samples.

Results

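The domain described here is the stretch of mouse chromosome 5 that carries Mnx1 and Ube3c, on the far side of Lmbr1 from Shh, in the region around Shh that was probed by 5C. It runs from 29.703 to 29.997 Mb on chromosome 5 in the mm9 build, which is 294 kb or 14 bins of 21 kb (bins 66 to 79). A member is a pair of different bins that both lie in this span, and there are 91 such pairs of the 2926 pairs of the region that hold a value in every full-size library. At the finer level, 72 of 343 HindIII fragments start in the span and form 2556 of 58653 possible fragment pairs. 5C, or chromosome conformation capture carbon copy, fixes nuclei, cuts and religates the DNA, and reads out contacts between chosen restriction fragments with matched primers. In the limb bud libraries, 1232 of the 2556 fragment pairs had a count in at least 1 library.

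The 21 libraries come from E14 embryonic stem cells (ESC) and from CD1 mouse embryos at stage E11.5. The edited ESC groups are the deletion line D35 and the lines DCTCF1, DCTCF2, DCTCF3, DCTCF4 and DCTCF5, and each is set against wild type E14 ESC. All 6 lines therefore share the same 2 wild type libraries. The E11.5 groups are posterior limb bud, anterior limb bud, whole embryos with the deletion D700, and the embryo body. The embryo body is a single library and all other groups have 2, and each D700 library merges 2 technical replicates. The labels give biological replicates, but not the extent or zygosity of an edit, how many clones a line stands for, or how many embryos were pooled. The 2 DCTCF2 libraries carry run labels of which 1 has a technical mark. Spread between 2 libraries may thus be partly technical.

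Mammalian chromatin folds into domains within which contact is frequent, and contact inside a domain falls as the distance between the partners grows. CTCF is a DNA-binding protein that, with cohesin, anchors the edges of many domains and can join them in a loop, which shows as raised contact between the ends of a domain. Shh encodes the secreted signal Sonic hedgehog, and an intron of Lmbr1 holds its limb enhancer, the ZRS. Mnx1 encodes a homeobox transcription factor of motor neurons and of the early pancreas. Ube3c encodes a ubiquitin ligase, and Nom1, which lies between Lmbr1 and Mnx1 in the RefSeq order, a nucleolar protein. The genes are used as landmarks of the domain and were not placed in single bins, since the annotation at hand is of another build than the files.

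The promoters of the genes that name the domain are shown because the assay reads contacts only at HindIII ends. The sequences are from RefSeq on GRCm38.p6 and run from 250 bases before to 50 bases after the start of the gene, 5′ to 3′ on the strand of the gene. Mnx1 lies on the minus strand (chr5:29478421-29478720 in GRCm38.p6) and Ube3c on the plus strand (chr5:29568992-29569291 in GRCm38.p6). The HindIII site AAGCTT, which reads the same on both strands, would stand in capitals.
Mnx1: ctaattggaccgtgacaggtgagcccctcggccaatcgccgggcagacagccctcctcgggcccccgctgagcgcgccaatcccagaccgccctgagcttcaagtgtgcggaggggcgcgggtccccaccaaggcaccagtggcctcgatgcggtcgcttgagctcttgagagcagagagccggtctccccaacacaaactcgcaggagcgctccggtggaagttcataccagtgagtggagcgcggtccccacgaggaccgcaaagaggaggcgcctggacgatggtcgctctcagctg
Ube3c: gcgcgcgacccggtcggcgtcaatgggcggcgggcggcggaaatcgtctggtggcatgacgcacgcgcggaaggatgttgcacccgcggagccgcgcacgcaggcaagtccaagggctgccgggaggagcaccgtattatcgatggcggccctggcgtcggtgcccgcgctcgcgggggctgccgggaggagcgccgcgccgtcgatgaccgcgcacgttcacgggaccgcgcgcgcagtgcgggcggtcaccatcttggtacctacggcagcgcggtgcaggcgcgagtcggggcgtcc
Neither window holds the site, which 2449 of 32851 RefSeq promoter windows of the same length (7.45%) do. The G and C content was 66.3% for Mnx1 and 74.0% for Ube3c, against a median of 52.7% over all windows.

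The binned matrices hold contact values that are not whole numbers and whose normalization is not stated, so the sequencing depth behind them is unknown. The values were scaled so that the pairs of each library sum to 50000, which puts the 19 full-size libraries on 1 scale. Their deposited totals without bin 65 ran from 52275 to 62376. The D700 matrices lack bins 27 to 58, so D700 was scaled together with the other E11.5 libraries over the bins they share, and values on that scale are higher. No pair of the domain was at 0 in any full-size library. Each of the 91 members passed the filter in every comparison (above 0 in at least 50% of the libraries).

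Contact inside the domain fell steeply over the first 3 bins and then levelled off. In wild type ESC the mean scaled value of neighbouring bins was 118 in replicate 1 and 135 in replicate 2, that of bins 63 kb apart was 44.2 and 45.1, and that of bins 168 kb apart was 23.3 and 28.3. In the limb bud, neighbouring bins averaged 135 and 145 in the posterior libraries and 143 and 188 in the anterior libraries. The embryo body had 89.1, the lowest of the unedited E11.5 libraries at that distance. The slope of log2 contact on log2 separation inside the domain was -0.57 ± 0.003 in wild type ESC, -0.46 ± 0.06 in posterior limb bud and -0.48 ± 0.04 in anterior limb bud (SD, n = 2 each), and -0.41 in the embryo body. Over the same separations, the slope in bins 22 to 63, the part of the region to the left of the domain, was -0.63 ± 0.09 in wild type ESC, -0.68 ± 0.01 in posterior limb bud and -0.77 ± 0.06 in anterior limb bud. In both limb bud groups contact thus decayed less steeply inside the domain than in bins 22 to 63, as it did in each of the 4 limb bud libraries.

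**Figure D1:**
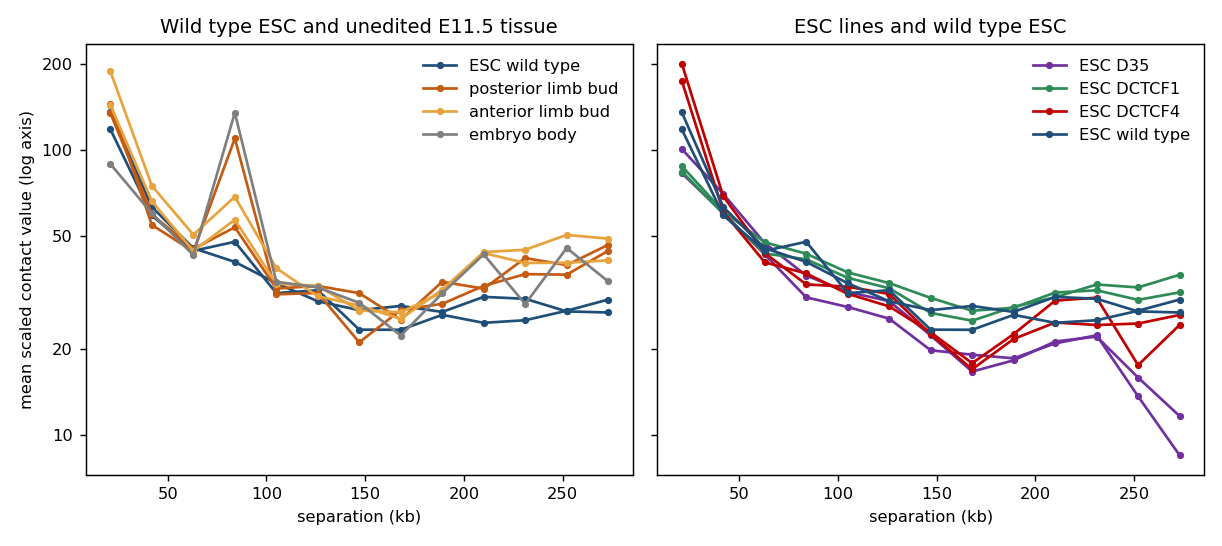
Mean scaled contact value (log axis) of the domain's bin pairs at each separation in kb, 1 line per library. The left panel shows wild type ESC, posterior and anterior limb bud and the embryo body, with the spike at 84 kb that bin 66 with bin 70 makes and the rise at the largest separations in E11.5 tissue. The right panel shows D35, DCTCF1, DCTCF4 and wild type ESC: DCTCF4 starts highest and D35 ends lowest, at 11.6 and 8.47.

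In E11.5 tissue the far ends of the domain were in more contact than its mid-range. At 168 kb the limb bud means were 25.4 and 27.4 in posterior and 26.9 and 25.5 in anterior libraries. At 273 kb, where bin 66 with bin 79 is the one pair, the values were 46.4 and 44.2 in posterior and 40.9 and 48.8 in anterior libraries. To put this in 1 number, the mean of the 10 pairs 10 to 13 bins apart was divided by the mean of the 13 pairs 7 to 8 bins apart, a measure chosen after the decay curves were seen and given with no test. A value above 1 means that contact goes up again with distance. Wild type ESC had 1.11 and 1.05, posterior limb bud 1.33 and 1.5002, and anterior limb bud 1.53 and 1.69. The D700 embryos had 1.52 and 1.35, and the embryo body 1.48. All 7 E11.5 libraries therefore lay above both wild type ESC libraries.

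The same ratio was taken in 33 other windows of 14 bins that hold values throughout and do not touch the domain. These windows overlap one another and serve as a description. Their median was between 0.82 and 0.88 in the 5 unedited E11.5 libraries, and in each of the 5 the domain lay above all 33 windows, the highest of which reached 1.31. In wild type ESC the medians were 0.83 and 0.76, and the domain lay above 29 and 31 of the 33 windows. Among the edited ESC lines, DCTCF1 replicate 1 (1.25) and DCTCF4 replicate 2 (1.31) also lay above all 33, while D35 had 0.99 and 0.96. Without bin 66, which enters 4 of the 10 far pairs, the ratio was 1.03 and 1.15 in wild type ESC. It was then 1.19 and 1.495 in posterior limb bud, 1.51 and 1.65 in anterior limb bud, and 1.40 in the embryo body. D35 had 1.14 and 1.13 without bin 66, close to wild type ESC. DCTCF4 had 1.35 and 1.34, above posterior replicate 1, so edited ESC and E11.5 libraries overlapped in this setting. The limb bud fragment counts, which were not binned, showed the same rise. Fragment pairs of the domain that are over 189 kb apart had on average 79.9 and 70.8 counts per pair, scaled to 1e+06 counts in the library, in posterior and 73.7 and 73.9 in anterior libraries. Those 126 to 189 kb apart had 55.9 and 49.4 in posterior and 51.5 and 47.1 in anterior libraries.

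**Figure D2:**
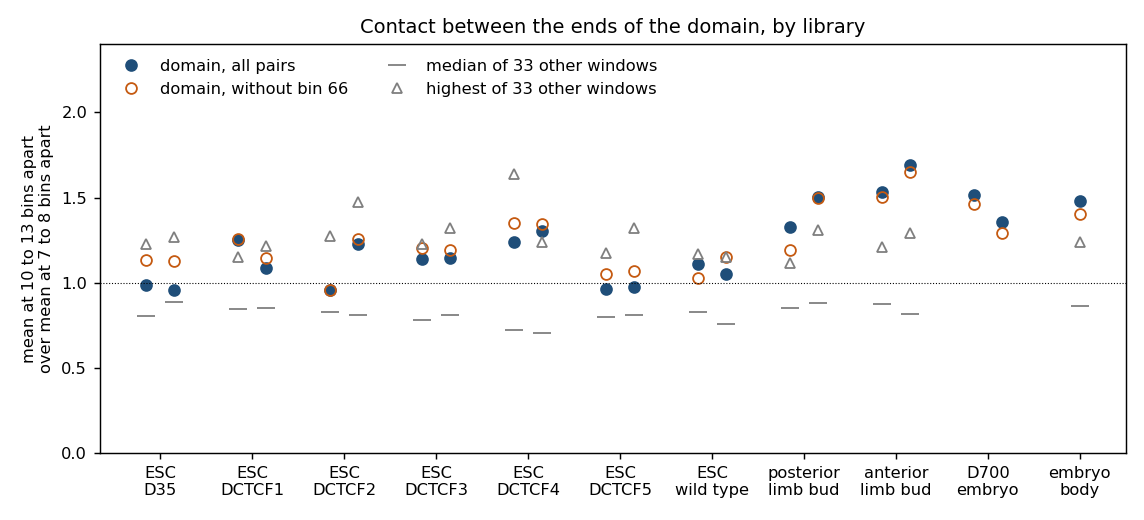
Mean contact 10 to 13 bins apart over mean contact 7 to 8 bins apart, per library, with all pairs of the domain (filled) and without bin 66 (open). Grey dashes and triangles give the median and the highest of 33 other windows of 14 bins in the same library, which D700 lacks. With all pairs, the E11.5 libraries lie between 1.33 and 1.69, and the ESC libraries other than D35 between 0.96 and 1.31. Without bin 66, DCTCF4 (1.35 and 1.34) lies above posterior replicate 1 (1.19).

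Contact across the middle of the domain was slightly lower than contact to either side of it. An insulation value was computed inside the domain as log2 of the mean contact between the 3 bins before and the 3 bins after a bin, centred on the mean of the 8 bins that have full windows. Bin 71 (29.808 to 29.829 Mb) was below 0 in 21 of 21 libraries, with a median of -0.26, and was the lowest bin in 10 of them. Bin 73 was also below 0 in 21 of 21, with a median of -0.21, and bins 72 and 74 in 20 and 19. Bins 73 and 75 were the lowest in 5 libraries each and bin 74 in 1. The libraries with bin 75 lowest were all E11.5 libraries. Bin 75 had a mean of -0.45 in anterior and -0.41 in posterior limb bud, -0.43 in the embryo body and -0.23 in wild type ESC. In the same order bin 71 had -0.20, -0.33, -0.27 and -0.26. Over the 21 libraries bin 71 ran from -0.50 to -0.15. With bin 66 with bin 70 left out of the windows, bin 71 was still below 0 in 21 of 21 libraries, with a median of -0.22. Bin 73 was then below 0 in 19 of 21, and bins 72 and 74 in 18 each. Bin 75 then had -0.37 in anterior and -0.29 in posterior limb bud, and -0.21 in both the embryo body and wild type ESC.

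Single pairs departed from the domain's own mean at their separation in much the same way in ESC and in embryos. Of 65 pairs 3 to 12 bins apart, 55 had the same sign in the mean of the ESC groups and the mean of the E11.5 groups. The highest was bin 66 with bin 70, at a log2 value over the separation mean of 0.79 in ESC and 2.56 in E11.5 groups. The ESC mean includes D35, at -2.02 and -1.76, and wild type ESC alone had 1.40. Next came bin 68 with bin 74 (0.62 in ESC and 0.83 in E11.5 groups). After it stood bin 76 with bin 79 (0.96 and 0.38), which was above 0 in all 21 libraries, and then bin 67 with bin 74 (0.62 and 0.56). By this measure the lowest pairs were bin 70 with bin 74 (-1.20 in ESC and -1.89 in E11.5 groups), bin 74 with bin 78 (-0.64 and -2.12), bin 69 with bin 73 (-0.76 and -1.73) and bin 69 with bin 72 (-1.34 and -1.08).

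The first 3 of these low pairs lie 84 kb apart, as bin 66 with bin 70 does, and their values rest on a mean that this pair raises. In the embryo body the deposited mean at 84 kb was 143 with the pair and 34.3 over the other 9 pairs, and in wild type ESC it was 52.4 and 46.4 with it and 40.6 and 39.7 without it. When bin 66 with bin 70 was left out of that mean, a setting chosen after the data were seen, bin 70 with bin 74 had -1.0002 in ESC and -0.51 in E11.5 groups. Bin 74 with bin 78 then had -0.44 and -0.73, and bin 69 with bin 73 had -0.56 and -0.35. All 3 were below 0 in all 21 libraries. The lowest pair was then bin 69 with bin 72, which lies 63 kb apart and is also below 0 in all 21 libraries, followed by bin 72 with bin 78 (-1.01 in ESC and -0.96 in E11.5 groups). The highest was bin 67 with bin 71 (0.90 and 0.84), above 0 in all 21 libraries. Of the 64 pairs, 54 had the same sign in both kinds of sample. By the mean over all 13 partners, bins 69 and 72 were the bins of least contact in wild type ESC, at -0.39 and -0.66 relative to the domain mean, and in limb bud, at -0.49 and -0.57. Fragments are not evenly spread over these bins: bin 74 holds 1 fragment start, bin 67 holds 2, and bins 69 and 72 hold 9 each, so a bin's level rests on few or many fragments.

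Of all pairs, bin 66 with bin 70 (29.703 to 29.724 Mb with 29.787 to 29.808 Mb) stood highest over its separation mean, and it varied widely between libraries. Its deposited value was 9.90 and 9.66 in D35 and 159 and 107 in wild type ESC. In E11.5 tissue it was 234 and 921 in posterior and 275 and 426 in anterior limb bud, 2923 and 518 in D700, and 1122 in the embryo body. It was the highest pair of the domain in the embryo body, both D700 libraries and posterior replicate 2, where it held 20.6%, 23.4%, 5.23% and 15.0% of the domain's summed value. In wild type ESC it held 3.24% and 1.96%. The 2 posterior libraries lay to either side of both anterior libraries, the 2 D700 libraries lay to either side of the embryo body, and posterior overlapped with D700.

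**Figure D3:**
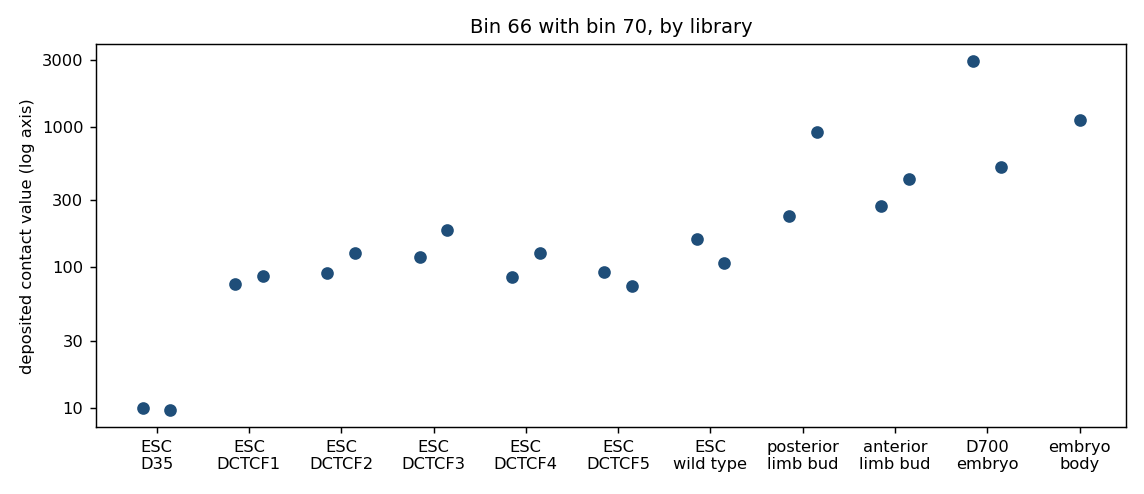
Deposited contact value (log axis) of bin 66 with bin 70 in each of the 21 libraries, 1 point per library. D35 lies near 10, the other ESC libraries between 73.7 and 186, and the E11.5 libraries between 234 and 2923.

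The limb bud fragment counts trace this pair to 2 fragments. Shh_458 (chr5:29703904-29705290) with Shh_491 (chr5:29806189-29807449), 102 kb apart by their starts, was counted 4009 and 34092 times in posterior and 5068 and 10215 times in anterior limb bud. It was the highest count of the whole region in posterior replicate 2, rank 2 or 3 in the other 3 libraries, and held 3.29% and 13.6% of the domain's counts in posterior and 3.16% and 4.18% in anterior limb bud. The exact (Clopper-Pearson) 95% intervals of these shares were 3.19% to 3.39% and 13.4% to 13.7% in posterior, and 3.08% to 3.25% and 4.11% to 4.27% in anterior limb bud. They cover counting error only, since PCR reads without molecular identifiers are not independent molecules. A set of 24 pairs is formed by the fragments up to 2 places to either side in the list of fragments. The 2 listed before Shh_458 start outside the domain, Shh_447 at chr5:29656939 and Shh_453 at chr5:29677935, so not all of these pairs are close by. Of the 24 pairs, 12 were at 0 in all 4 libraries, for a reason that was not tested. The comparison therefore rests on the other 12, which were far lower. Their highest count was 203 and 477 in posterior and 736 and 961 in anterior limb bud, so that the named pair was 19.7 and 71.5 times that in posterior and 6.89 and 10.6 times in anterior limb bud. The part of bin 66 with bin 70 in the domain's mean was measured by leaving it out: the domain mean without it was 52.9 and 51.6 in posterior limb bud, against 54.7 and 60.1 with it. In the embryo body the domain mean was 45.4 without the pair and 56.5 with it.

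The mean contact inside the domain was lower in wild type ESC than in limb bud, but bin 66 with bin 70 took part in the separation of the groups, and limma called none of the single pairs. The mean was 47.3 and 50.5 in wild type ESC, on the scale of this comparison, against a mean of 58.0 ± 5.3 in the 4 limb bud libraries (SD, n = 4), a log2 ratio of -0.25. On the common scale of all full-size libraries, the 2 wild type ESC libraries had 48.7 and 52.2, the posterior 54.7 and 60.1, the anterior 57.2 and 67.5, and the embryo body 56.5. Wild type ESC and limb bud did not overlap on this scale. Without bin 66 with bin 70 they did: wild type ESC then had 47.7 and 51.7, posterior 52.9 and 51.6, and anterior limb bud 55.2 and 64.4 (log2 ratio -0.18). As a share of the library's total the domain took 8.87% and 9.49% in wild type ESC, 9.95% and 10.9% in posterior and 10.4% and 12.3% in anterior limb bud. With all pairs and the body added to the E11.5 mean the groups still did not overlap, but with bin 66 left out the body fell to 46.5, below the 49.6 and 51.5 of wild type ESC. The limb bud libraries stayed above wild type ESC without bin 66, at 54.7 and 55.4 in posterior and 57.2 and 67.3 in anterior limb bud. At 2 or more bins apart they also did not overlap: wild type ESC had 37.2 and 38.3, posterior 41.3 and 45.9, and anterior limb bud 42.8 and 47.4. The runs of wild type replicate 2 and of the limb bud libraries are from different years, and cell line and tissue differ in more than stage.

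Of the 91 members, limma called 0 lower and 0 higher in wild type ESC than in limb bud. Over the whole region 0% of 2926 pairs were called lower and 0.205% higher. At an unadjusted p under 0.05 there were 14 members (15.4%), beside 13.3% of all pairs. The median change was -0.13 over the members and -0.03 over all pairs. The 3 members of smallest p join the 2 ends. Bin 68 with bin 78 had 28.5 and 31.1 in wild type ESC, against 46.7 and 53.7 in posterior and 52.8 and 47.3 in anterior limb bud, a log2 change of -0.67 ± 0.15 (SE, limma adjusted p = 0.175). For bin 66 with bin 78 the values were 20.9 and 19.1 in wild type ESC, against 39.5 and 28.8 in posterior and 37.1 and 38.5 in anterior limb bud (-0.72 ± 0.17, adjusted p = 0.183). For bin 66 with bin 79 they were 28.9 and 26.0 in wild type ESC, against 45.0 and 42.9 in posterior and 39.7 and 47.1 in anterior limb bud (-0.59 ± 0.15, adjusted p = 0.194). In each of the 3 the ESC values lay below all 4 limb bud values. That held for 20 of the 91 members, beside 10.5% of all pairs. None of the 3 passed the adjustment.

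Each fit was repeated on mean values of fixed tiles of 7 bins, of which bins 66 to 72 and bins 73 to 79 make up the domain, giving 3 tile pairs there and 78 in the region. Between wild type ESC and limb bud, 0 of the 3 was called, beside 1.28% of all tile pairs called lower and 3.85% higher. Contact within bins 66 to 72 was 75.2 and 81.1 in wild type ESC and 96.4 ± 14.1 in limb bud (SD, n = 4), a change of -0.27 ± 0.11 (SE, limma adjusted p = 0.124), which was -0.09 without bin 66 with bin 70. Contact between bins 66 to 72 and bins 73 to 79 was 28.8 and 30.3 in wild type ESC and 35.4 ± 3.3 in limb bud (-0.22 ± 0.08, adjusted p = 0.123). Contact within bins 73 to 79 was 62.6 and 67.1 in wild type ESC and 72.3 ± 8.7 in limb bud (-0.14 ± 0.09, adjusted p = 0.366). When neighbouring bins were left out 2 of the 3 tile pairs were called, and with the embryo body added 1 was. Without posterior replicate 1, 1 tile pair and 1 member were called.

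**Figure D4:**
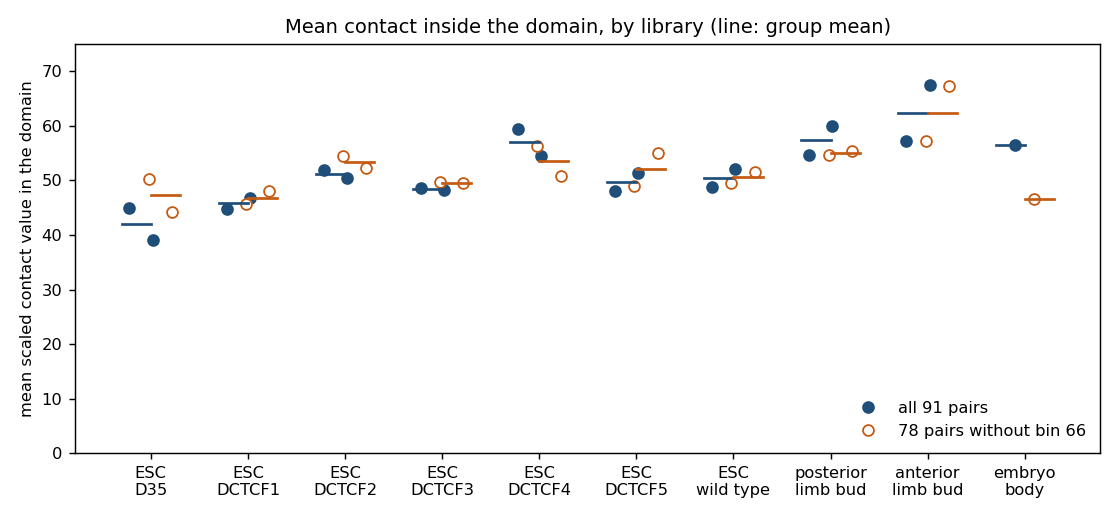
Mean scaled contact value of the domain in each full-size library, with all 91 pairs (filled) and with the 78 pairs that leave out bin 66 (open, rescaled without that bin), with a line at each group's mean. The limb bud libraries lie between 54.7 and 67.5 with all pairs, above the wild type ESC libraries at 48.7 and 52.2, and the embryo body moves down to 46.5 without bin 66.

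In D35, contact of bin 66 with the rest of the domain fell. This bin is the first inside the domain, next to bin 65, which was at 0 with 59 of 76 bins in both D35 libraries and with at most 2 in the other full-size libraries. Of the 13 members that hold bin 66, all had a change below 0 and 12 were called lower than in wild type, and the domain mean was 44.9 and 39.1 in D35 against 48.7 and 52.2 in wild type ESC (log2 ratio -0.26). In all, 13 of 91 members were called lower and 0 higher, beside 0.632% of the region's 2850 pairs called lower and 0.561% higher. D35 and wild type were run in different years, so line and run year cannot be told apart.

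The largest change was at the nearest neighbour. Bin 66 with bin 67 had 3.44 and 2.65 in D35 and 127 and 339 in wild type ESC, a log2 change of -4.90 ± 0.41 (SE, limma adjusted p = 2.82e-05). The pair of bins 66 and 70 had 8.89 and 8.94 in D35 and 144 and 93.2 in wild type (-3.21 ± 0.26, adjusted p = 2.82e-05). The pair of bins 66 and 74 had 2.10 and 2.15 in D35 and 15.3 and 25.5 in wild type (-1.95 ± 0.21, adjusted p = 0.000321). The fall ran to the far end of the domain, with no overlap between the groups at any of these pairs. For bins 66 and 75 the values were 12.2 and 8.72 in D35 and 30.9 and 30.7 in wild type (-1.27 ± 0.17, adjusted p = 0.00155). Bins 66 and 79, which span the domain, had 11.6 and 8.47 in D35 and 29.8 and 26.8 in wild type (-1.21 ± 0.17, adjusted p = 0.00176). The exception among the 13 was bin 66 with bin 68, with a change of -0.38 that did not pass. The 5 pairs given with values were called lower in every alternative that keeps them. Without D35 replicate 2 the count of called members was 7 and without wild type replicate 2 it was 8.

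The same bin was called lower with few bins of the rest of the region. Its mean contact with the other 13 bins of the domain was 18.6 and 13.9 in D35, against 52.6 and 65.6 in wild type ESC. Its mean contact with 40 bins of bins 22 to 63 was 12.9 and 15.4 in D35 and 13.6 and 12.3 in wild type, and 27 of those 40 pairs had a change above 0. With bins 0 to 20 its mean contact was 9.10 and 9.87 in D35 and 13.3 and 10.0 in wild type, and 6 of those 21 pairs had a change above 0. Of the 62 pairs of bin 66 outside the domain, 2 were called lower and 0 higher. With bins 53 to 63 its level was 19.6 and 22.6 in D35 and 20.6 and 21.9 in wild type. The difference between the 2 sets of partners was not tested.

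In a D35 fit that leaves bin 66 out, 1 of the 78 remaining members was called lower and 0 higher, beside 0.108% of 2775 pairs called lower, with a median change of -0.07. At an unadjusted p under 0.05 there were 16 members (20.5%), beside 10.2% of all pairs, of which 11 were lower in D35. Of these 16, 5 hold bin 67, the next bin, and all 5 were lower. The called member was bin 67 with bin 75, at 15.2 and 15.5 in D35 and 29.5 and 31.5 in wild type ESC (-0.83 ± 0.16, limma adjusted p = 0.036). This pair is not particular to D35. Against the same wild type libraries it was also called lower in DCTCF4 (-0.68, limma adjusted p = 0.0485). It was lower, but not called, in DCTCF2, DCTCF3 and DCTCF5. The domain mean was then 50.3 and 44.2 in D35 and 49.6 and 51.5 in wild type, and the groups overlapped. In the tile fit, contact within bins 66 to 72 was 52.4 and 47.2 in D35 and 77.5 and 83.8 in wild type, or -0.64 ± 0.07 on the log2 scale (SE, adjusted p = 3.43e-05), beside 3.85% of the 78 tile pairs called lower. With bin 66 left out the tile changed by -0.31, which missed the threshold (adjusted p = 0.0601). Contact between bins 66 to 72 and bins 73 to 79 fell by 0.20 on the log2 scale (27.0 and 24.7 in D35, 29.6 and 31.2 in wild type, adjusted p = 0.049), a call that was lost without bin 66 (-0.11) and in 11 of its 13 alternatives. Contact within bins 73 to 79 was 79.4 and 64.7 in D35 and 64.5 and 69.3 in wild type (0.09 ± 0.08, adjusted p = 0.518).

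**Figure D5:**
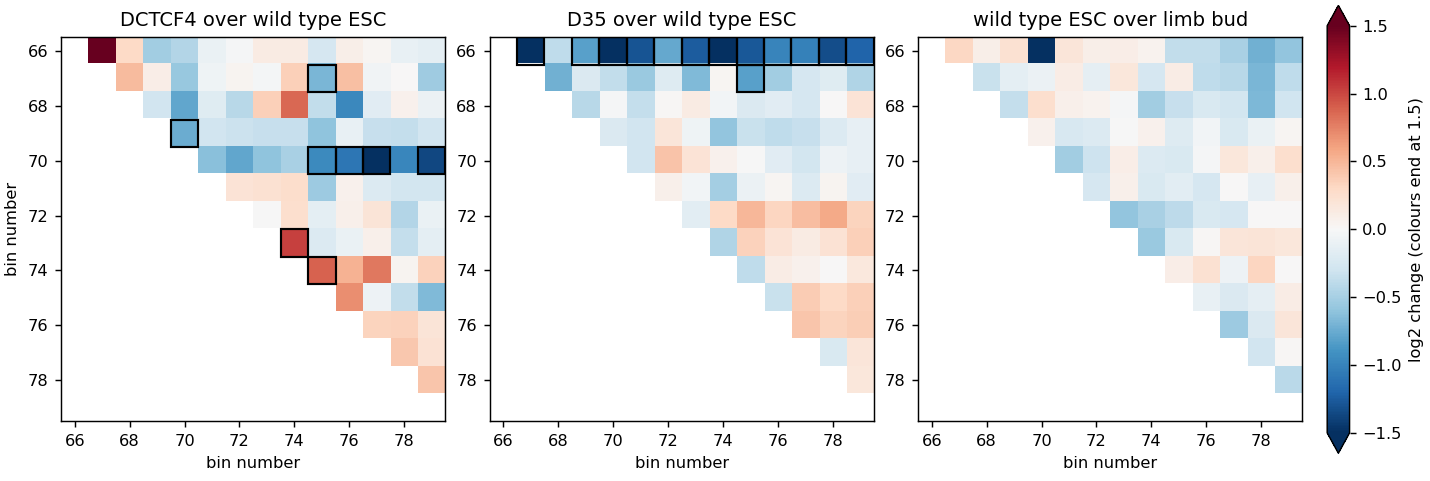
Log2 change of each of the 91 members by bin number, for DCTCF4 over wild type ESC, D35 over wild type ESC and wild type ESC over limb bud, with called members (limma, adjusted p under 0.05) outlined. Colours end at 1.5 in both directions. Of the 6 lower calls of DCTCF4, 5 lie along bin 70 and the other is bin 67 with bin 75. Its 2 higher calls lie along the diagonal. In D35 12 of the 13 calls lie along bin 66, and the third panel has none.

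In DCTCF4, contact of bin 70 with the right part of the domain fell while that of some neighbouring bins rose. Of 91 members, 6 were called lower and 2 higher, beside 2.28% of the region's 2850 pairs called lower and 0.211% higher. The members' share of lower calls, 6.59%, was above that background, and 5 of the 6 hold bin 70. Such a gathering of calls was not particular to bin 70. Of the 65 lower calls of the region, 16 hold bin 8, 8 hold bin 2, 8 hold bin 50 and 7 hold bin 3, all outside the domain. Bin 70 with bin 79 had 10.1 and 6.52 in DCTCF4 and 27.3 and 27.9 in wild type ESC, a change of -1.37 ± 0.17 (SE, limma adjusted p = 0.00132). Bin 70 with bin 76 had 13.3 and 14.2 in DCTCF4 and 34.4 and 32.8 in wild type (-1.08 ± 0.17, adjusted p = 0.00839). Bin 70 with bin 77 had 5.97 and 3.77 in DCTCF4 and 20.3 and 26.6 in wild type (-1.62 ± 0.31, adjusted p = 0.0218). The 2 groups were far apart at all 3 pairs. The other calls were close to the threshold. Bin 69 with bin 70 had 38.9 and 40.4 in DCTCF4 and 67.1 and 71.7 in wild type (-0.75, adjusted p = 0.0469). For bins 67 and 75 the values were 16.6 and 17.1 in DCTCF4 and 28.6 and 30.5 in wild type (-0.68, adjusted p = 0.0485), and bins 70 and 75 changed by -0.95 (adjusted p = 0.0499).

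All 13 members that hold bin 70 had a change below 0 in DCTCF4, with a median of -0.78. Against the same wild type libraries, 12 of these 13 were below 0 in DCTCF2 (median -0.28). In DCTCF3 11 were below 0 (-0.32), and in D35 10 were (-0.13). The mean of bin 70 with its partners in the domain was 30.3 and 32.7 in DCTCF4 and 56.1 and 52.4 in wild type ESC. With the 62 bins outside the domain it was 7.39 and 8.96 in DCTCF4 and 13.3 and 9.75 in wild type, and 1 of those 62 pairs was called lower. Of those 62 pairs, 45 had a change below 0. DCTCF4 was run in the same year as wild type replicate 2. With run year as a covariate 1 member, bin 70 with bin 79, was still called, and without wild type replicate 1, 1 member was called. Bin 70 with bin 79 was lower and called in each of its 14 alternatives, bin 70 with bin 76 in 12 of 14 and bin 70 with bin 77 in 9 of 14.

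Of the 13 pairs of neighbouring bins, 9 were higher in DCTCF4 without overlap between the groups, beside 10.8% of all pairs at any separation. Steeper decay was not particular to the domain. Inside it the slope was -0.74 ± 0.04 in DCTCF4 and -0.57 ± 0.003 in wild type ESC (SD, n = 2 each). In bins 22 to 63 it was -0.81 ± 0.06 and -0.63 ± 0.09. The slopes were not tested. Of the 9 neighbour pairs, 2 were called higher. Bin 73 with bin 74 had 147 and 154 in DCTCF4 and 57.8 and 89.1 in wild type ESC (1.02 ± 0.21, limma adjusted p = 0.0287). Bin 74 with bin 75 had 167 and 169 in DCTCF4 and 72.7 and 110 in wild type (0.88 ± 0.21, adjusted p = 0.0489). The mean of all 13 neighbour pairs was 201 and 175 in DCTCF4 and 118 and 135 in wild type, and bin 66 with bin 67 alone had 692 and 617 against 127 and 339. Contact within bins 73 to 79 was 90.7 and 83.4 in DCTCF4 and 64.5 and 69.3 in wild type (0.35 ± 0.08, adjusted p = 0.0106), beside 5.13% of the 78 tile pairs called higher and 6.41% lower. Within bins 66 to 72 it was 101 and 89.3 in DCTCF4 and 77.5 and 83.8 in wild type (0.22 ± 0.07, adjusted p = 0.066), and between the tiles 28.2 and 27.3 in DCTCF4 and 29.6 and 31.2 in wild type (-0.11 ± 0.06, adjusted p = 0.281). The domain mean was 59.4 and 54.5 in DCTCF4 and 48.7 and 52.2 in wild type (log2 ratio 0.18). This came with the neighbours: at 2 or more bins apart the domain means were 35.9 and 34.5 in DCTCF4 and 37.2 and 38.3 in wild type, and the call within bins 73 to 79 was lost. As observed over expected it was lost too, as it was when replicate 1 of either DCTCF4 or wild type was left out. Within the year of DCTCF4, where 1 wild type library stands against 2 of DCTCF4, the log2 ratio within bins 73 to 79 was 0.33.

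In DCTCF1, neighbouring bins of the domain had lower values than in wild type, and contact decayed less steeply both inside and outside the domain. Inside it the slope was -0.40 ± 0.03 in DCTCF1 and -0.57 ± 0.003 in wild type ESC (SD, n = 2 each). In bins 22 to 63 it was -0.46 ± 0.006 and -0.63 ± 0.09. The slopes were not tested. The neighbour pairs of DCTCF1 averaged 83.9 and 87.7, against 118 and 135 in wild type ESC. Contact within bins 66 to 72 was 61.0 and 62.3 in DCTCF1 and 77.5 and 83.8 in wild type. This is -0.36 ± 0.07 on the log2 scale (SE, limma adjusted p = 0.00484). Of all 78 tile pairs, 6.41% were called lower and 16.7% higher in this line. Between the tiles DCTCF1 had 31.5 and 32.3 and wild type 29.6 and 31.2 (0.06 ± 0.07, adjusted p = 0.467), and within bins 73 to 79 DCTCF1 had 59.7 and 64.9 and wild type 64.5 and 69.3 (-0.09 ± 0.08, adjusted p = 0.397). The domain mean was 44.8 and 46.8 in DCTCF1 and 48.7 and 52.2 in wild type (log2 ratio -0.14). Within each of the 2 run years, with 1 library per group in each, contact within bins 66 to 72 differed by -0.35 and -0.43 on the log2 scale. The call was lost when neighbours were left out (-0.18), as observed over expected (-0.05), and without DCTCF1 replicate 1 (-0.35).

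Among the single members of DCTCF1, 0 were called, as were 0% of 2850 pairs in either direction, with 10 members at an unadjusted p under 0.05 (11.0%, beside 11.3% of all pairs). The smallest p was at bin 67 with bin 68, at 121 and 126 in DCTCF1 and 267 and 246 in wild type ESC (-1.03 ± 0.19, limma adjusted p = 0.118). Bins 74 and 75 had 55.9 and 53.9 in DCTCF1 and 72.7 and 110 in wild type (-0.66, adjusted p = 0.288), and bin 73 with bin 74 had 40.9 and 52.5 in DCTCF1 and 57.8 and 89.1 in wild type (-0.59, adjusted p = 0.312). All 3 are neighbour pairs, and the last 2 are those that were called higher in DCTCF4 against the same wild type libraries.

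In DCTCF2, DCTCF3 and DCTCF5, 0 of 91 members and 0 of the 3 tile pairs were called by limma. Over the region, 0.0351% of 2850 pairs were called lower and 0% higher in DCTCF2, and 0% in either direction in DCTCF3 and DCTCF5. Of the 78 tile pairs, 1.28% were called lower and 0% higher in DCTCF2, and 0% in either direction in DCTCF3 and DCTCF5. Members at an unadjusted p under 0.05 numbered 15 in DCTCF2 (16.5%, beside 10.1% of all pairs), 12 in DCTCF3 (13.2%, beside 6.88%) and 10 in DCTCF5 (11.0%, beside 5.23%). The domain mean was 51.9 and 50.4 in DCTCF2, 48.6 and 48.3 in DCTCF3, 48.0 and 51.3 in DCTCF5, and 48.7 and 52.2 in wild type ESC, so that DCTCF2 and DCTCF5 overlapped wild type and DCTCF3 lay just below it. The tile changes ran from -0.15 (within bins 66 to 72 in DCTCF5) to 0.17 (within bins 73 to 79 in DCTCF5), with adjusted p of at least 0.385.

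The members of smallest p in these lines partly coincide, in comparisons that share their wild type libraries. Bin 67 with bin 75 had 15.6 and 12.7 in DCTCF2, 12.5 and 17.4 in DCTCF3, 17.6 and 22.6 in DCTCF5, and 28.6 and 30.5 in wild type ESC, with changes of -0.89, -0.83 and -0.48 (limma adjusted p = 0.157, 0.148 and 0.773). Bin 70 with bin 79 had 14.9 and 12.9 in DCTCF2, 17.2 and 13.0 in DCTCF3, and 27.3 and 27.9 in wild type (-0.82 and -0.73, adjusted p = 0.172 and 0.258). Bin 76 with bin 77 was higher in both, at 179 and 177 in DCTCF2, 141 and 170 in DCTCF3, and 108 and 92.3 in wild type (0.81 and 0.61, adjusted p = 0.172 and 0.474). In DCTCF5 the others were bin 76 with bin 78, at 105 and 120 in DCTCF5 and 80.2 and 82.3 in wild type (0.45, adjusted p = 0.773), and bin 66 with bin 79, at 18.4 and 19.2 in DCTCF5 and 29.8 and 26.8 in wild type (-0.50, adjusted p = 0.773). In DCTCF2, DCTCF3 and DCTCF5 none of these values passed the adjustment. Bin 67 with bin 75 was called lower in DCTCF4 and D35, against the same wild type libraries.

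Posterior and anterior limb bud were compared because Shh is expressed in the posterior margin of the limb bud. Of 91 members, limma called 0 in either direction, as it did 0% of 2926 pairs, with 4 members at an unadjusted p under 0.05 (4.40%, beside 7.93% of all pairs). The log2 ratio of the domain means was -0.12, within the spread between replicates. Bin 67 with bin 77 had 23.9 and 19.8 in posterior and 47.5 and 51.7 in anterior limb bud (-1.04 ± 0.20, adjusted p = 0.389). Bin 72 with bin 73 had 118 and 119 in posterior and 152 and 223 in anterior limb bud (-0.62, adjusted p = 0.536), and bin 66 with bin 68 had 76.1 and 72.3 in posterior and 97.6 and 108 in anterior (-0.45, adjusted p = 0.536). Of the 3 tile pairs, 0 were called, beside 5.13% of all tile pairs called higher and 1.28% lower. Contact within bins 66 to 72 was 81.7 and 111 in posterior and 87.3 and 106 in anterior limb bud (-0.01 ± 0.10, adjusted p = 0.929), which was -0.17 without bin 66 with bin 70. Between the tiles it was 35.2 and 31.3 in posterior and 35.8 and 39.4 in anterior (-0.15 ± 0.10, adjusted p = 0.230), and within bins 73 to 79 it was 65.95 and 68.9 in posterior and 69.4 and 85.2 in anterior (-0.18 ± 0.10, adjusted p = 0.185). Leaving out posterior replicate 1 gave 3 called members and leaving out posterior replicate 2 gave 1.

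The fragment counts of the same libraries were tested separately. The libraries hold 749738 and 1400833 counts in posterior and 1022801 and 1383595 in anterior limb bud. Pairs of the domain took 16.3% and 17.9% of the counts in posterior and 15.7% and 17.6% in anterior limb bud. Without Shh_458 with Shh_491 the shares were 15.8% and 15.9% in posterior and 15.2% and 17.0% in anterior limb bud. Of the 1127 member pairs with a summed count of at least 20, edgeR called 0 in either direction, as it did 0% of 20551 pairs of the region, with 40 members at an unadjusted p under 0.05 (3.55%, beside 4.10% of all pairs). DESeq2 gave an adjusted p to 1054 of them and called 2 higher (0.190%) and 6 lower (0.569%), close to its 0.165% higher and 0.514% lower over the 15769 pairs of the region that had one.

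Shh_460 (chr5:29706211-29709705, bin 66) with Shh_491 (bin 70) had 167 and 477 counts in posterior and 736 and 961 in anterior limb bud, a log2 change of -1.57 (edgeR adjusted p = 0.794, DESeq2 adjusted p = 0.000911). Shh_487 (chr5:29786563-29787575) with Shh_508 (chr5:29849214-29850560) had 31 and 35 counts in posterior and 140 and 172 in anterior limb bud (-2.22, edgeR adjusted p = 0.794, DESeq2 adjusted p = 0.0103). Shh_477 (chr5:29768741-29769326) with Shh_539 (chr5:29953600-29958998) had 36 and 64 counts in posterior and 111 and 252 in anterior limb bud (-1.89, edgeR adjusted p = 0.794, DESeq2 adjusted p = 0.0431). In each the posterior counts lay below the anterior counts, and the 2 tools differ on whether that passes. The pair Shh_458 with Shh_491 had a change of 1.00 (edgeR adjusted p = 1.00), which turned to -0.44 without posterior replicate 2.

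The most counted pairs apart from that one were close in distance. Shh_510 (chr5:29851352-29854911) with Shh_513 (chr5:29859545-29863829) had 1162 and 2974 counts in posterior and 2011 and 3595 in anterior limb bud. Shh_536 (chr5:29938026-29947212) with Shh_539 had 1101 and 2833 in posterior and 1675 and 2743 in anterior. Shh_490 (chr5:29805363-29806188) with Shh_493 (chr5:29809880-29815593) had 1453 and 2213 in posterior and 1490 and 2629 in anterior. The starts of these pairs are 8.19, 15.6 and 4.52 kb apart, against 102 kb for Shh_458 with Shh_491. Shh_551 (chr5:29988809-29991479) with Shh_554 (chr5:29996460-30001398) had 958 and 2523 in posterior and 1293 and 2669 in anterior limb bud. Their log2 changes ran from -0.57 to -0.18, none called.

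The D700 matrices hold all 14 bins of the domain. Of 91 members, limma called 0 in either direction in D700 embryos relative to the single embryo body, beside 0.193% of 1035 pairs called higher and 0% lower, with 3 members at an unadjusted p under 0.05 (3.30%, beside 7.83% of all pairs). The domain mean was 111 ± 17 in D700 (SD, n = 2) and 119 in the embryo body, on the scale of the shared bins. Contact within bins 66 to 72 was 253 and 151 in D700 and 233 in the body (-0.24 ± 0.14, adjusted p = 0.486), which was -0.01 without bin 66 with bin 70. Between the tiles it was 63.5 and 68.3 in D700 and 71.7 in the body (-0.10 ± 0.14, adjusted p = 0.884), and within bins 73 to 79 it was 132 and 120 in D700 and 116 in the body (0.10 ± 0.14, adjusted p = 0.884). None of the 3 was called, beside 5.56% of the 36 tile pairs called higher and 0% lower. The 3 members of smallest p hold bin 67. Bin 67 with bin 78 had 90.2 and 72.6 in D700 and 35.9 in the body (0.96 ± 0.22, adjusted p = 0.153). For bins 67 and 68 the values were 419 and 333 in D700 and 223 in the body (0.72, adjusted p = 0.454), and bin 67 with bin 77 had 69.3 and 66.5 in D700 and 101 in the body (-0.51, adjusted p = 0.519). On this scale the limb bud libraries had 74.3 to 93.0 at bin 67 with bin 78, 532 to 805 at bin 67 with bin 68, and 42.3 to 104 at bin 67 with bin 77. Against all 5 unedited E11.5 libraries the change of bin 67 with bin 68 in D700 turned to -0.51, and that of bin 67 with bin 78 was 0.15. The fit takes the single body library to vary like the other groups. Body and D700 were run in different years and differ in material, embryo body against whole embryos. Year, material and genotype therefore cannot be told apart.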

How the data were processed

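5C libraries of 21 samples or merged samples were analysed, and the members and lists were chosen with earlier results of these data known. The binned contact signal is as deposited, per pair of 21 kb bins of mm9, and how it was normalized is not stated. The deposited observed over expected ratio was made by the authors, per the file names, and served as an alternative. The fragment counts of the limb bud libraries are the authors' deposited read counts per pair of HindIII fragments. No aligner is named in those sources. The 19 matrices that add replicates together were not used.

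Each library was scaled to a total of 50000 over pairs of different bins, without bin 65 in the ESC fits. Pairs above 0 in at least 50% of the libraries were tested with limma (version 3.58.1, R version 4.3.3). Values entered as log2 after a pseudocount was added, which was percentile 5 of the values above 0 (4.07 for ESC, 4.38 for wild type ESC against limb bud, 4.53 for posterior against anterior and 11.8 for D700). Fold changes of low pairs are therefore understated. P-values were adjusted over the whole region by Benjamini-Hochberg, with a call at 0.05, and the same was done for fixed tiles of 7 bins. Domain means are descriptions with no test. Fragment pairs with a summed count of at least 20 were tested with edgeR 4.0.16 (quasi-likelihood, TMM), with DESeq2 1.42.0 as an alternative. The named pairs are up to 5 called members per direction by adjusted p, filled up to 3 by smallest p where fewer were called, and for fragments the 5 of highest count and the 3 of smallest p. Simulated data were used to test the pair fits of DCTCF4, of wild type ESC against limb bud and of D700. The edgeR fragment fit was tested in the same way. The tile fits, the posterior against anterior bin fit and DESeq2 were not. Same-numbered libraries did not deviate together (correlations from -0.10 to 0.04 for bins, 0.02 for fragments), so the numbers were not used as pairs.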

Additional observations from a re-analysis of the deposited data

How the results depend on the processing

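Calls near the diagonal depended on the processing, and the cause of the moves below was not tested unless the alternative itself shows it. With pairs 2 or more bins apart, called tile pairs were 0 in DCTCF1, 0 in DCTCF4 and 2 for wild type ESC against limb bud, called members in DCTCF4 were 3, the domain mean ratios (log2) were -0.0438 in DCTCF1, -0.0549 in DCTCF2 and 0.0391 in DCTCF4, and these tile changes turned: bins 73 to 79 in DCTCF1 (0.0219) and DCTCF3 (-0.0552), bins 66 to 72 in DCTCF2 (-0.0417), DCTCF4 (-0.0954) and posterior against anterior limb bud (0.0729). As observed over expected, called tile pairs were 0 in DCTCF1 and DCTCF4, called members in DCTCF4 were 2, the domain mean ratios were 0.0679 in DCTCF1, -0.13 in DCTCF2, 0.00263 in DCTCF4 and -0.14 in D35, and the tiles that turned were bins 73 to 79 in DCTCF1 (0.146) and DCTCF3 (-0.0362) and bins 66 to 72 in DCTCF2 (-0.078) and DCTCF4 (-0.0649). With values as deposited, the domain mean ratios were -0.25 in DCTCF1, 0.30 in DCTCF4 and 1.04 in D700, DCTCF4 had 5 called members and 2 tile pairs, D35 had 1 tile pair, D700 had 79 members and 3 tile pairs, and contact between the tiles turned in DCTCF1 (-0.0306). The D700 values follow from its larger deposited totals, as do its turned values for bins 66 to 72 (0.84), between the tiles (0.86) and bin 67 with bin 77 (0.51). With scaling by the median ratio, the domain mean ratios were -0.32 in DCTCF1, 0.13 in DCTCF2, 0.32 in DCTCF4, -0.41 in D35 and -0.29 for posterior against anterior limb bud, DCTCF4 had 4 called members, D35 had 1 tile pair, and the tiles that turned were between the tiles in DCTCF1 (-0.0947) and DCTCF4 (0.000382) and bins 73 to 79 in D35 (-0.0413). DCTCF4 had 4 called members with a pseudocount of 1 and 1 with run year as a covariate. D35 had 1 called tile pair with a pseudocount of 1, with shared neighbouring values counted once, or with bin 66 and bin 70 left out as a pair, an alternative chosen after seeing the data. Without bin 66, D35 had 1 called member, 0 tile pairs and a ratio of -0.10. With the embryo body added, wild type ESC against E11.5 had 1 tile pair. Against all 5 unedited E11.5 libraries, D700 turned at bins 73 to 79 (-0.18) and at bin 67 with bin 68 (-0.51). DESeq2 called 8 fragment pairs. With the replicate block DCTCF4 had 4 called members and D35 1 tile pair, and no other count or domain mean moved.

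Leaving out 1 library at a time gave 1 to 6 called members and 0 to 2 tile pairs in DCTCF4, 7 to 9 members and 1 tile pair in D35, 0 to 1 tile pairs in DCTCF1, 0 to 1 members and tile pairs for wild type ESC against limb bud, 0 to 3 members and 0 to 1 tile pairs for posterior against anterior limb bud, and 0 to 1 tile pairs in D700. The domain mean ratios ran from -0.19 to -0.09 in DCTCF1, -0.03 to 0.07 in DCTCF2, -0.11 to -0.00852 in DCTCF3, 0.11 to 0.24 in DCTCF4, -0.07 to 0.03 in DCTCF5, -0.37 to -0.17 in D35, -0.31 to -0.18 for wild type ESC against limb bud, -0.23 to 0.00531 for posterior against anterior limb bud, and -0.27 to 0.05 in D700. Tile changes that turned ran from -0.0254 (without wild type replicate 1) to 0.0792 for bins 66 to 72 in DCTCF2, from -0.0335 (without wild type replicate 1) to 0.0623 for bins 73 to 79 in DCTCF3, and from -0.0439 (without D35 replicate 1) to 0.231 for bins 73 to 79 in D35. For bins 66 to 72 they ran from -0.22 to 0.20 for posterior against anterior limb bud, above 0 without anterior replicate 2 (0.12) or posterior replicate 1, and from -0.58 to 0.11 in D700, above 0 without D700 replicate 2. Among fragment pairs, Shh_490 with Shh_493 (up to 0.12) and Shh_551 with Shh_554 (-0.63 to 0.13) turned without anterior replicate 2, and Shh_458 with Shh_491 (-0.44 to 1.70) without posterior replicate 2. Groups of 2 libraries limit every test, the depth behind the binned values is unknown, and the wild type ESC libraries are shared by all lines.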
